A study of Mus musculus with 30 samples.

Results

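The genes examined were those of 10 acute-phase plasma proteins, Saa1, Saa2, Saa3, Saa4, Orm1, Orm2, Hp, Hpx, Lcn2, and Cp, in the livers of wild-type (WT) and PPARα-null (Null) mice given perfluorooctane sulfonate (PFOS). Every probe set that the array annotation assigns to 1 of these genes was taken, 19 of the 45101 on the array. No measured value entered this choice of probe sets, but the genes themselves were chosen with earlier results of these data known. Cp had 8 probe sets, Saa1 and Saa4 had 2 each, and each of the other genes had 1. All 19 were among the 24069 probe sets kept after weak ones were removed, that is, above the median of all values (5.65 on the log2 scale) in at least 5 of the 30 arrays. Most were far above it, but Cp 1417497_at exceeded it in 7 arrays and Cp 1448735_at in 15, and these were kept on a narrow margin.

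WT mice were 129S1/SvlmJ and Null mice were 129S4/SvJae-Pparatm1Gonz/J, which lack functional PPARα in all tissues. All were males aged 6 to 9 months, and each received 0, 3, or 10 mg/kg PFOS as its potassium salt in 0.5% Tween 20 by gavage on 7 consecutive days, so that the controls received the vehicle. Each of the 6 groups held 5 mice with 1 array of left-lobe liver RNA per mouse, and values are log2 expression values from Robust Multichip Average (RMA). The genotypes come from different 129 substrains, and substrain and genotype cannot be told apart. Mice were housed 5 to a cage, and which mice shared a cage is not given in the sources used here.

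Array medians lay between 5.60 and 5.70. Liver identity was plain, with Alb, Apoa1, and Ttr among the highest values of the table. Among the WT controls, replicates 4 and 5 stood apart from the rest. Their mean over the 3 probe sets of Ppara was 8.66 and 8.74, against 9.93 to 10.77 in the other 13 WT arrays and 8.78 to 9.81 in the 15 Null arrays. Their mean over the 3 probe sets of Cyp2b10, a cytochrome P450 gene induced through the receptor CAR, was 12.80 and 12.93, against 6.78 to 9.06 in the other 8 control arrays and 10.47 to 13.19 in the 20 arrays of treated mice. In both measures these 2 arrays lay apart from untreated WT liver, near or within the values of PFOS-treated Null mice, and every comparison with WT controls carries that doubt. Whether the Ppara probe sets lie in the deleted part of the gene is not known here. Both arrays were kept as labeled, and for comparisons with WT controls the count of called members and the main differences are also given without them, a choice made after their values were seen. A difference was called at an adjusted p under 0.05 by limma, with p adjusted by Benjamini-Hochberg over all 24069 probe sets, and whole liver cannot tell more transcript per cell from more cells of a type.

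Acute-phase proteins are made mainly by hepatocytes and released into plasma when cytokines such as interleukin-6 and interleukin-1 reach the liver during infection or injury. Interleukin-6 acts through STAT3, interleukin-1 through NF-κB, and C/EBP factors bind many of the promoters. Serum amyloid A proteins (Saa1, Saa2, and Saa3) are carried on high-density lipoprotein and can rise by orders of magnitude, whereas Saa4 is the constitutive member of that family. Orm1 and Orm2 encode orosomucoids, which bind drugs and lipids, Hp encodes haptoglobin, which binds free hemoglobin, Hpx encodes hemopexin, which binds heme, Lcn2 encodes lipocalin 2, which binds bacterial siderophores, and Cp encodes ceruloplasmin, a copper-carrying ferroxidase.

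The promoters of the 4 genes whose levels differed most between mice of the same group are shown, because these genes carry most of the variation described here and their promoters bear on the factors named above. Sequences are from RefSeq (GRCm38.p6), which gave a promoter for 8 of the 10 genes, Orm1 and Hp being the others. Each is the 250 bases before the start of transcription, read 5′ to 3′ on the strand of the gene, and capitals mark matches on either strand to TTNNGNAA, a short form of the C/EBP motif. Saa1 lies on the minus strand (chr7:46742981-46743230), Saa2 on the plus strand (chr7:46751583-46751832), Orm2 on the plus strand (chr4:63362199-63362448), and Lcn2 on the minus strand (chr2:32387740-32387989).
Saa1: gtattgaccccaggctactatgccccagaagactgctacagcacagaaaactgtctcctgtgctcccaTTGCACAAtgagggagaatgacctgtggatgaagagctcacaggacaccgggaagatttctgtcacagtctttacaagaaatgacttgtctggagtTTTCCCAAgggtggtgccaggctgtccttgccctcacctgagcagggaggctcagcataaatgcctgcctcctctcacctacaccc
Saa2: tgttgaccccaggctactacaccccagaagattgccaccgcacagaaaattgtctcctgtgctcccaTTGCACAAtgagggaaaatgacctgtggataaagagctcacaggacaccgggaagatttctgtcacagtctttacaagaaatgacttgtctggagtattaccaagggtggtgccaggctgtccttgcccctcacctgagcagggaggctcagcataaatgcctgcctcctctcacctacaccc
Orm2: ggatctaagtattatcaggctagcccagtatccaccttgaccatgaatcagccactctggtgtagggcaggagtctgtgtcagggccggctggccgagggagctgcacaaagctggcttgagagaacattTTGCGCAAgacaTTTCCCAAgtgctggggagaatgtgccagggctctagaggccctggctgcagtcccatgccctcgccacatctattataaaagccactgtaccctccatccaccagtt
Lcn2: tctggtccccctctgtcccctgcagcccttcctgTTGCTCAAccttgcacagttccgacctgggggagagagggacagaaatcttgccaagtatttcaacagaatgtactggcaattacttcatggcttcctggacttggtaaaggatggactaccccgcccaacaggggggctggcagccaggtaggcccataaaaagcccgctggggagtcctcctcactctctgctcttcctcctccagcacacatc

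The promoters of Saa1 and Saa2, which lie side by side on chromosome 7 and are transcribed away from each other, were identical in 238 of 251 aligned positions (94.8%). By the same alignment Saa1 shared 48.5% with Saa3 and 46.3% with Saa4, no more than the 52.2% it shared with Lcn2, a gene of another family. The C/EBP letters occurred in the window of all 8 genes, against 36.8% of 32851 promoters. The STAT letters TTCNNNGAA occurred in 0 of 8 against 7.02%, and the NF-kB letters (GGGA and TTCC with any 2 bases between them) in 0 of 8 against 1.21%. These are letter matches in 1 short window, both strands read. The promoters are not part of the transcripts that the array measures. Among the probe sets, the target of Saa1 1419075_s_at is a transcript that RefSeq assigns to Saa2, the same transcript as the target of Saa2 1449326_x_at, and the suffixes _s_at and _x_at mark probe sets that can bind several transcripts. Signals of Saa1 and Saa2 may therefore be mixed, and Saa1 1450788_at, whose target is Saa1 itself, is used for Saa1 below unless stated.

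Levels of the inducible members differed between mice of 1 group more than those of nearly any other gene on the array. Within-group standard deviations, pooled over the 6 groups, ranked 1st of 24069 for Saa2 (2.38 on the log2 scale), 2nd for Saa1 1419075_s_at (2.13), 3rd for Lcn2 (2.07), 4th for Saa1 1450788_at (1.77), 8th for Orm2 (1.48), and 11th for Saa3 (1.44). The median over all probe sets was 0.158 and the 99th percentile 0.605. Without the 2 WT control arrays that stood apart, the first 4 ranks were the same, Orm2 ranked 6th, and Saa3 ranked 7th. The constitutive and abundant members were steadier. Orm1 had a pooled SD of 0.377 (rank 1166) and Saa4 0.293 and 0.338 for its 2 probe sets (ranks 2381 and 1578), still well above the median. Hp had 0.170 (rank 10210) and Hpx 0.0934 (rank 22938). Hp and Hpx reached 14.49 and 14.40 where the highest value in the whole table was 14.50. Little range was therefore left above them, and the part of this in their narrow spread was not tested. Saa2 reached 14.31, also near that value, and whether this held down its highest levels was not tested.

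In controls, Saa1 values of the 5 WT mice were 13.62, 9.03, 13.58, 13.59, and 10.89, in order of replicate number, and those of the 5 Null mice were 13.19, 11.48, 10.70, 10.33, and 12.38. At 3 mg/kg Saa1 was 8.20, 7.84, 11.98, 13.02, and 13.59 in WT mice and 12.97, 13.07, 12.72, 13.78, and 13.65 in Null mice. With 10 mg/kg it was 13.48, 11.83, 13.63, 9.81, and 12.19 in WT mice and 10.29, 13.18, 13.13, 13.81, and 10.26 in Null mice. The lowest mouse of a group lay between 7.84 and 10.33 in 5 of the 6 groups, untreated groups included, and at 12.72 in Null mice at 3 mg/kg.

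**Figure D1:**
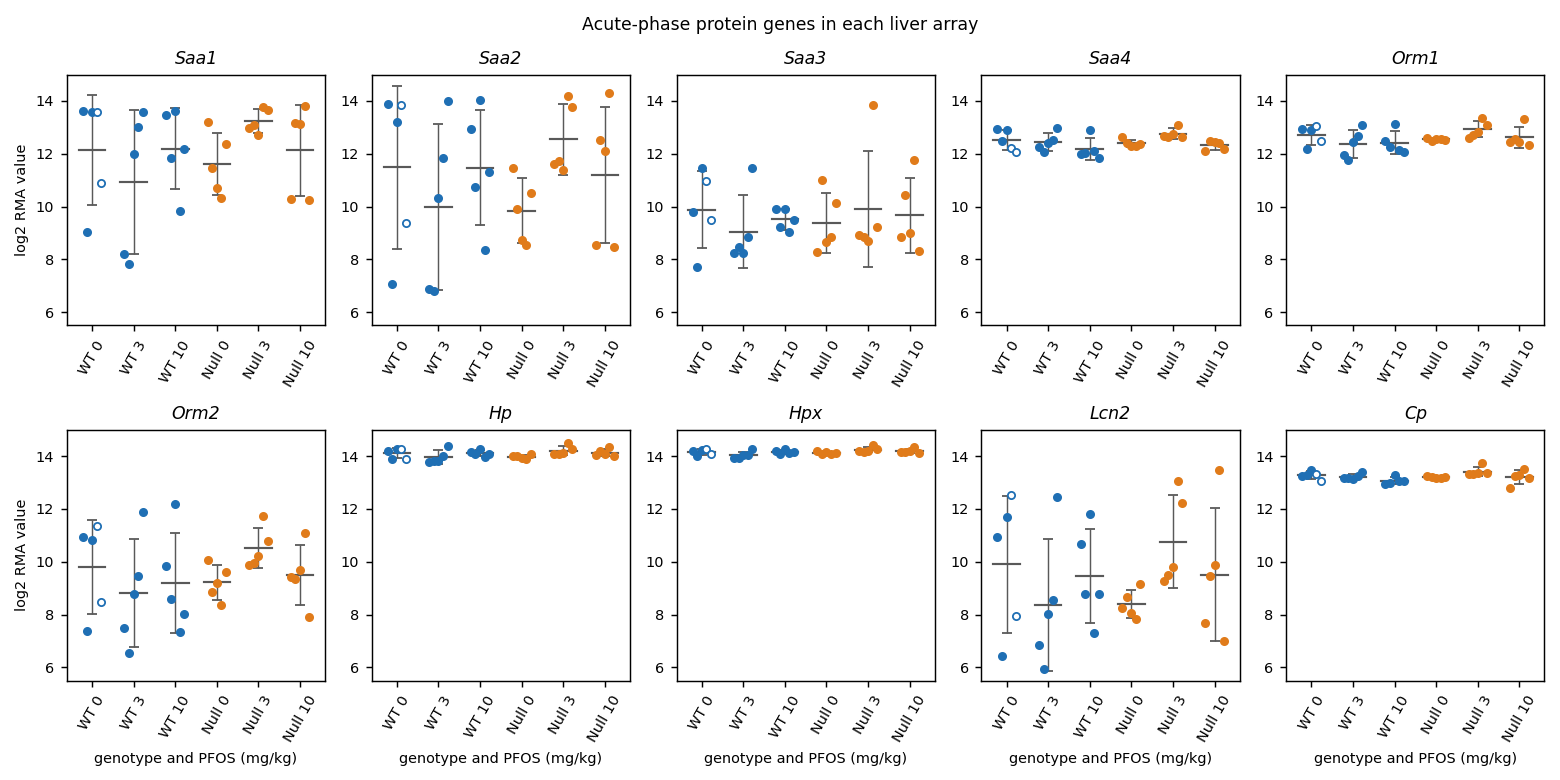
Log2 RMA value of each gene (probe set with the highest mean) in each of the 30 liver arrays, by genotype and PFOS dose. Points are mice, bars are the group mean ± SD (n = 5), blue is WT, orange is Null, and open points are the 2 WT control arrays that stood apart. Saa1, Saa2, Orm2, and Lcn2 spread widely in most groups, while Hp, Hpx, and Cp lie in narrow bands.

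Lcn2, whose product neutrophils also store in granules, showed the same kind of scatter. It was 10.93, 6.42, 11.69, 12.53, and 7.94 in WT controls, 6.86, 5.95, 8.02, 8.54, and 12.46 in WT mice at 3 mg/kg, and 10.65, 8.76, 11.79, 7.31, and 8.76 at 10 mg/kg. In Null mice it was 8.26, 8.68, 8.06, 7.83, and 9.16 in controls, 9.26, 9.48, 9.80, 13.06, and 12.22 at 3 mg/kg, and 7.70, 9.45, 9.89, 13.47, and 7.01 at 10 mg/kg. Null controls formed the tightest of the 6 groups for Lcn2 (SD 0.526, n = 5, against 1.75 to 2.60 in the others), and every Null mouse at 3 mg/kg lay above every Null control.

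Orm2 in WT mice was 10.95, 7.39, 10.84, 11.37, and 8.47 in controls, 7.48, 6.55, 8.76, 9.46, and 11.88 at 3 mg/kg, and 9.83, 8.60, 12.18, 7.36, and 8.02 at 10 mg/kg. In Null mice it was 10.05, 8.87, 9.20, 8.35, and 9.62 in controls, 9.88, 9.94, 10.23, 11.72, and 10.80 at 3 mg/kg, and 9.42, 9.36, 9.70, 11.07, and 7.92 at 10 mg/kg. The groups overlapped in every comparison, and 3 of 5 Null mice at 3 mg/kg were above the highest Null control. Orm1, the related orosomucoid, ranged only from 11.78 to 13.37 over the 30 arrays.

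A single mouse often carried the top of a group for all members. WT replicate 5 at 3 mg/kg, WT replicate 3 at 10 mg/kg, and Null replicate 4 at 3 mg/kg were each the highest of their group for 10 of 10 genes, and Null replicate 4 at 10 mg/kg was the highest for 9, Saa4 being the exception. In WT controls replicate 2 was the lowest for 7 genes. Of Saa3, which macrophages and fat cells also express, Null replicate 4 at 3 mg/kg held 13.84 where the other 4 mice of the group held 8.68 to 9.24.

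Across the 30 mice, with each group centered on its mean, 9 relations of Saa1 with the other members were computed. Pearson's r was 0.969 for Saa2, 0.863 for Orm2, 0.832 for Lcn2, 0.803 for Orm1, 0.789 for Hpx, 0.768 for Hp, 0.602 for Saa4, 0.545 for Saa3, and 0.483 for Cp. Spearman's rho was 0.967, 0.886, 0.850, 0.836, 0.844, 0.803, 0.612, 0.575, and 0.487 in the same order. By permutation (100000 resamples, two-sided), p for r was 1e-05, the smallest these resamples can give, for Saa2, Orm2, Lcn2, Orm1, Hpx, and Hp, with an adjusted p of 1.5e-05 over the 9 relations. It was 0.00038 for Saa4 (adjusted 0.000489), 0.00172 for Saa3 (adjusted 0.00194), and 0.00638 for Cp (adjusted 0.00638). For rho, p was 1e-05 for the first 6 genes, 0.00049 for Saa4, 0.00115 for Saa3, and 0.00678 for Cp.

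Leaving out the 2 mice farthest from the Saa1 median gave r of 0.964 for Saa2, 0.820 for Orm2, 0.794 for Lcn2, 0.745 for Orm1, 0.740 for Hpx, 0.750 for Hp, 0.601 for Saa4, 0.490 for Saa3, and 0.552 for Cp, so none rested on those mice. Within genotypes r had the same sign in all 9 relations, for example 0.891 in the 15 WT and 0.728 in the 15 Null mice for Lcn2, and 0.416 and 0.683 for Cp. Without the 2 arrays that stood apart, r for Cp was 0.468 over 28 mice. Hpx, which moved over only 0.462 log2 units in all, tracked Saa1, which moved over 5.97. The value for Saa2 includes whatever signal the Saa1 and Saa2 probe sets share.

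**Figure D2:**
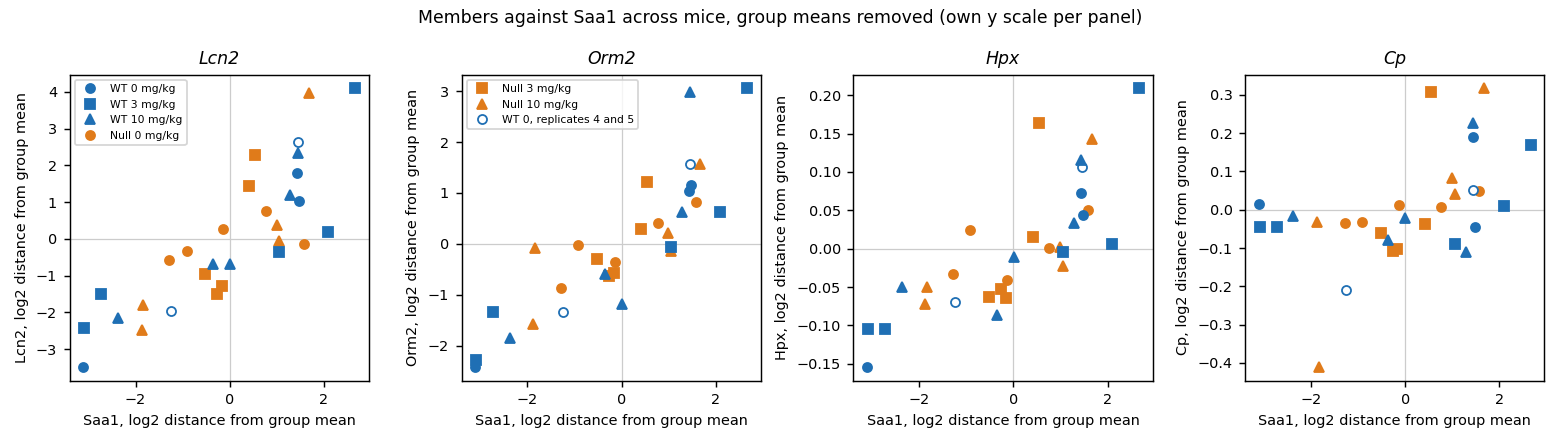
Each panel sets a gene against Saa1 over 30 mice, both as log2 distance from the group mean. Blue is WT, orange is Null, circles are 0, squares 3, and triangles 10 mg/kg, open circles are the 2 WT control arrays that stood apart, and the y scale differs by panel. Lcn2 (r = 0.832) and Orm2 (r = 0.863) follow Saa1 over several log2 units, Hpx (r = 0.789) follows it over less than 1 unit, and Cp (r = 0.483) more loosely.

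Genes outside the members with the closest pattern were ranked over 12146 genes by Pearson's r across the 30 arrays, which share the same groups, and are given with no test. For Saa1 these were Fgl1 (0.767), which encodes a fibrinogen-like protein secreted by hepatocytes, Tmem123 (0.715), and Prg4 (0.713), which encodes lubricin. For Orm2 they were Prg4 (0.896), Apcs (0.880), which encodes serum amyloid P, and Fgl1 (0.879). For Cp they were Fgg (0.868) and Fgb (0.861), which encode fibrinogen chains, and Cpsf2 (0.864), which encodes a subunit of the mRNA cleavage machinery.

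The first question of the design was whether PFOS altered these genes in WT mice. At 3 mg/kg, 0 of 19 probe sets were called by limma and 0 had an unadjusted p under 0.05, where 0.162% of all probe sets were called and 5.4% had such a p. The estimates were below 0 for 18 of 19, with a median of -0.11 against 6.02e-05 over all probe sets. Intervals were wide for the variable genes. The Saa1 difference was -1.22 (95% interval -3.76 to 1.33) and the Lcn2 difference -1.54 (-4.25 to 1.18), so that changes of several fold were not detectable with 5 mice per group. For steady genes the interval was narrow, -0.27 to 0.04 for Hpx. With the 2 arrays that stood apart left out, 0 of 19 were called by limma and 0 had an unadjusted p under 0.05, with -1.15 (SE 1.41) for Saa1 and -1.31 (SE 1.42) for Lcn2.

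In WT mice at 10 mg/kg, 1 of 19 probe sets was called, where 10.4% of all probe sets were called and 4.55% were called lower. It was Cp 1448735_at, which fell by 0.61 (SE 0.184, adjusted p = 0.0451 by limma). Its values were 5.62, 5.63, 6.57, 5.64, and 5.27 in controls and 5.15, 5.15, 5.05, 5.36, and 4.97 at 10 mg/kg, so that 1 control lay within the treated range and 1 control far above the others. Most of these values lie at or under the median of the table, where signal is weak. Without WT control replicate 3, the mouse at 6.57, the difference was -0.41 and the probe set was not called. It was also not called with WT control replicate 1 or 2, or with treated replicate 1, 2, 3, or 5 left out, with adjusted p between 0.0145 and 0.0979 over the 10 runs. The call was also lost with no filter, with each array shifted to the same median, and with quantile normalization repeated.

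The other Cp probe sets place that call in context. Cp 1417494_a_at, well above the median in all 30 arrays, was 13.24, 13.30, 13.47, 13.33, and 13.07 in WT controls and 12.95, 12.98, 13.29, 13.05, and 13.04 at 10 mg/kg. Of the treated mice 4 of 5 lay below every control, and the fifth lay among the controls. The difference was -0.22 (SE 0.0832, adjusted p = 0.10), and 2 more probe sets, 1417495_x_at (-0.25, adjusted p = 0.0952) and 1455393_at (-0.22, adjusted p = 0.117), had an unadjusted p under 0.05 without being called. All 8 Cp estimates were below 0. Without the 2 arrays that stood apart, Cp 1417494_a_at was called (fell by 0.27, adjusted p = 0.0419), and so was 1448735_at (fell by 0.81, adjusted p = 0.00828). These 4 Cp probe sets, in the fit of all arrays of the genotype, were the only ones of the 19 with an unadjusted p under 0.05, against 28.2% of all probe sets. Groups did not overlap for 0 of 19, against 7.43%.

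**Figure D3:**
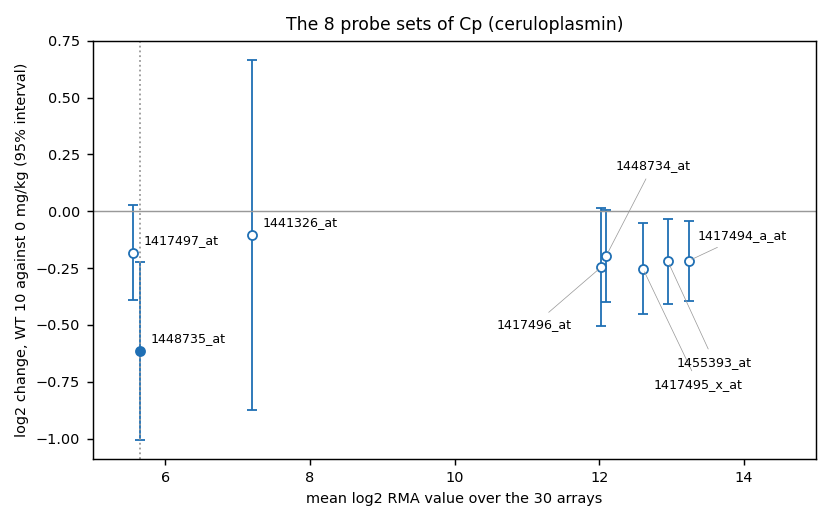
Each point is 1 of the 8 Cp probe sets, with its mean log2 RMA value over 30 arrays on the x axis and its log2 change in WT mice at 10 against 0 mg/kg on the y axis (bars are 95% intervals, n = 5 per group). The filled point was called, and the dotted line is the table median. The called probe set lies at the median (5.65), and the 5 probe sets above 12 have estimates from -0.25 to -0.20.

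No other member was called in WT mice at 10 mg/kg. Saa1 differed by 0.05 (95% interval -2.49 to 2.59), Saa2 by -0.01 (-3.33 to 3.30), and Lcn2 by -0.45 (-3.16 to 2.27). These were, without the 2 arrays that stood apart, 0.12 (SE 1.41), 0.08 (SE 1.81), and -0.22 (SE 1.42), and with 1 array left out the Lcn2 difference ranged from -1.32 to 0.21. Saa4, for its probe set 1419319_at, differed by -0.36 (SE 0.237, adjusted p = 0.344), and by -0.64 (adjusted p = 0.0724) without the 2 arrays that stood apart. Hp differed by 0.0026 (-0.24 to 0.25) and Hpx by -0.0048 (-0.16 to 0.15), the narrowest intervals of the members outside Cp being those of Hpx. Between 10 and 3 mg/kg, 0 of 19 were called where 5.25% of all were, and 2 had an unadjusted p under 0.05, both of Cp, against 25% of all.

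In Null mice at 3 mg/kg the picture differed. Means of all 10 genes were higher here than in any other group, and 17 of 19 estimates against controls were above 0, with a median of 0.37 against 0.0061 over all probe sets. Since the genes vary together between mice, these are not 10 separate results. Only 1 of the 19, Saa4 1419319_at, was called higher and 0 were called lower, where 1.57% and 2.31% of all probe sets were (3.88% in either direction). An unadjusted p under 0.05 was reached by 10 of 19 against 17.8% of all probe sets, and the groups did not overlap for 5 of 19 against 7.9%.

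Saa4 1419319_at was 11.72, 11.43, 11.31, 11.23, and 11.41 in Null controls and 11.82, 11.88, 12.08, 12.30, and 11.78 at 3 mg/kg. All 5 treated mice lay above all 5 controls, and it rose by 0.55 (SE 0.131, 95% interval 0.28 to 0.83, adjusted p = 0.0287 by limma), or 1.47-fold. The second Saa4 probe set, 1419318_at, was 12.62, 12.40, 12.29, 12.28, and 12.38 in controls and 12.68, 12.65, 12.77, 13.10, and 12.64 when treated. It did not overlap either, with a difference of 0.37 (SE 0.106) and an adjusted p of 0.0619. With 1 array left out at a time, the difference of 1419319_at ranged from 0.47 to 0.63 and its adjusted p from 0.0187 to 0.0844. It was not called without Null control replicate 2, 3, 4, or 5 or without treated replicate 2 or 4, nor when all 30 arrays were fitted together.

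The largest differences in Null mice at 3 mg/kg belonged to genes whose spread kept them from being called. Saa2 was 11.47, 9.91, 8.72, 8.56, and 10.53 in controls and 11.63, 11.74, 11.38, 14.17, and 13.79 at 3 mg/kg, a difference of 2.70 (95% interval 0.61 to 4.80, adjusted p = 0.147). Lcn2 differed by 2.37 (0.30 to 4.44, adjusted p = 0.205), Saa1 by 1.62 (0.20 to 3.05, adjusted p = 0.206), and Orm2 by 1.30 (0.29 to 2.30, adjusted p = 0.149). All 4 intervals excluded 0 before adjustment. Without treated replicate 4, the mouse highest for every member, the Saa2 difference was 2.30, that of Lcn2 1.79, and that of Orm2 0.99, while that of Saa3 turned from 0.53 to -0.46.

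Smaller differences of the same direction were measured for the abundant members. Orm1 differed by 0.38 (0.03 to 0.73, adjusted p = 0.234) and Hp by 0.23 (0.04 to 0.42, adjusted p = 0.183), whereas the interval of Hpx, 0.11 (-0.03 to 0.25), included 0. Of the Cp probe sets well above the median, differences were between 0.13 and 0.37, with adjusted p from 0.228 to 0.695, and the groups did not overlap for 1417494_a_at and 1448734_at. These Cp estimates had the opposite sign to those in WT mice at 10 mg/kg.

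**Figure D4:**
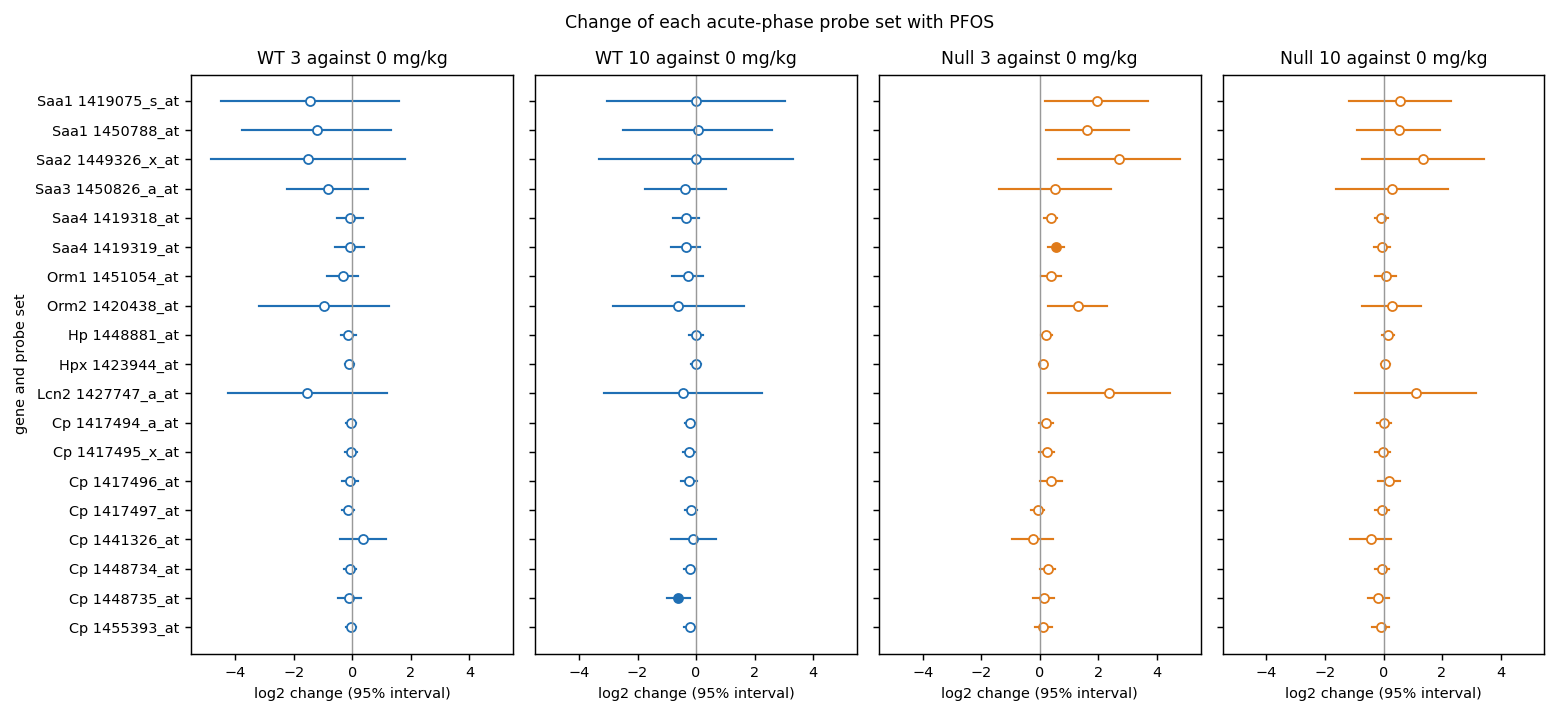
Log2 change of each of the 19 probe sets against controls of the same genotype (points) with 95% intervals (lines, n = 5 per group), in WT mice (blue) and Null mice (orange) at 3 and 10 mg/kg PFOS. Filled points were called at an adjusted p under 0.05. Only Cp 1448735_at in WT mice at 10 mg/kg and Saa4 1419319_at in Null mice at 3 mg/kg are filled, and intervals of Saa1, Saa2, Orm2, and Lcn2 span several log2 units.

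In Null mice at 10 mg/kg, 0 of 19 were called by limma and 0 had an unadjusted p under 0.05, where 7.04% and 22.5% of all probe sets did. Saa2 was 8.56, 12.51, 12.10, 14.31, and 8.47, which enclosed the whole range of the controls. Its difference was 1.35 (95% interval -0.75 to 3.45), that of Lcn2 1.11 (-0.96 to 3.18), that of Saa1 0.52 (-0.90 to 1.94), and that of Saa4 1419319_at -0.04 (-0.32 to 0.23). Saa4 at 10 mg/kg was 11.19, 11.52, 11.61, 11.55, and 11.01 for this probe set, all under the lowest mouse at 3 mg/kg. Between 10 and 3 mg/kg it differed by -0.60 (SE 0.131, adjusted p = 0.532) and 1419318_at by -0.45 (SE 0.106, adjusted p = 0.541). These were the 2 of 19 that did not overlap in that comparison, where 0.852% of all probe sets did not overlap and 0 were called, and 4 of 19 had an unadjusted p under 0.05 against 8.88%.

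Whether the genotypes responded differently was tested in 1 fit of all 30 arrays, with the WT change taken from the Null change. At 3 mg/kg, 0 of 19 were called where 0.818% of all were, 18 of 19 estimates were above 0, and 7 had an unadjusted p under 0.05 against 13.9%. The estimate was 3.90 for Lcn2 (95% interval 0.39 to 7.42, adjusted p = 0.295), 4.21 for Saa2 (0.18 to 8.25, adjusted p = 0.333), and 0.37 for Hp (0.06 to 0.67, adjusted p = 0.247, the lowest of the members). At 10 mg/kg, 0 of 19 were called where 2.95% of all were and 0 had an unadjusted p under 0.05, with 1.55 for Lcn2 (-1.96 to 5.07) and 0.22 for Cp 1417494_a_at (-0.06 to 0.51). Neither the call of Saa4 in Null mice nor that of Cp in WT mice was shown to differ between genotypes, since the differences in response were 0.64 for Saa4 1419319_at (adjusted p = 0.297) and 0.43 for Cp 1448735_at (adjusted p = 0.445). Both tests use the WT controls, and without the 2 arrays that stood apart 0 were called in either. At 3 mg/kg the estimates were then 3.68 for Lcn2 (adjusted p = 0.384), 4.12 for Saa2 (adjusted p = 0.409), and 0.93 for Saa4 1419319_at (adjusted p = 0.136), and at 10 mg/kg the estimate was 0.63 for Cp 1448735_at (adjusted p = 0.197).

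Between Null and WT controls no difference in these genes was detectable. None of 19 was called by limma and 0 had an unadjusted p under 0.05, where 1.25% and 15.2% of all probe sets were, and the lowest adjusted p was 0.602. The Null minus WT difference was -0.53 (95% interval -2.64 to 1.59) for Saa1, -1.51 (-3.99 to 0.98) for Lcn2, and -0.03 (-0.16 to 0.10) for Hpx. Without the 2 arrays that stood apart, which leaves 3 WT controls, 0 were called and 0 had an unadjusted p under 0.05, with -0.46 (adjusted p = 0.920) for Saa1 and -1.28 (adjusted p = 0.754) for Lcn2. The Lcn2 difference ran from -2.37 without WT control replicate 2 to -0.85 without replicate 4. Of the 50 gaps between neighboring groups when the 6 group means of each gene were put in order, 49 were smaller than the larger SD of that pair, the exception being Cp between Null controls (13.20) and WT mice at 10 mg/kg (13.06).

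Other positive acute-phase proteins, which also rise in inflammation, were read from a list of 24 genes, 20 of them measured. In this and the following lists 1 probe set stands for a gene in the tests, picked for its minimum p across dose effects, a choice that favors calls and that was made for all 12156 genes alike, whereas list levels use the probe set with the highest mean. In WT mice 0 of 20 were called by limma at either dose, where 0.239% of all genes were called higher and 0.00823% lower at 3 mg/kg. The shares at 10 mg/kg were 7.53% and 5.54%. An unadjusted p under 0.05 was reached by 0 of 20 at the lower dose, against 6.61% of all genes, and by 4 of 20 at the higher dose, against 32.1%. The list median was -0.09 at the lower and -0.23 at the higher dose, beside -0.0026 and -0.0041 over all genes. At 10 mg/kg 2 were called lower without the 2 arrays that stood apart. In Null mice at 3 mg/kg the list median was 0.36, beside 0.0023 over all genes. An unadjusted p under 0.05 by limma was reached by 11 of 20, against 21.5% of all genes. Of the 20 genes 2 were called higher, where 2.02% of all genes were. Those were Steap4, a metalloreductase (rose by 0.63, SE 0.142, adjusted p = 0.0227), and Slc39a14, a zinc and iron importer induced by interleukin-6 (rose by 0.56, SE 0.123, adjusted p = 0.0202). Fgl1 differed by 1.67 (adjusted p = 0.0887) and Apcs by 0.50 (adjusted p = 0.163). At 10 mg/kg the list median was 0.05, beside 0.0019 over all genes, and 2 of 20 had an unadjusted p under 0.05, against 26.9%. Only 1 of 20 was called, where 4.14% of all genes were called higher. This was Il1rn, the interleukin-1 receptor antagonist (rose by 0.56, adjusted p = 0.0274). In the treated groups the mean of the 20 genes was highest in the same mice as the members. It was 12.39 in WT replicate 5 at 3 mg/kg and 12.28 in WT replicate 3 at 10 mg/kg. In Null replicate 4 it was 12.50 at 3 mg/kg and 12.25 in the replicate 4 of 10 mg/kg. The control groups had no such match: the list was highest in WT replicate 3 (12.20) and Null replicate 5 (11.85), each the highest of its group for 2 of the 10 members.

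Negative acute-phase proteins, which fall in inflammation, had 10 of 12 genes measured. In WT mice at 10 mg/kg 1 was called lower and 1 higher, where 5.54% and 7.53% of all genes were, and without the 2 arrays that stood apart 3 were called lower and 1 higher. With all arrays Ahsg (fetuin A) fell by 0.34 (SE 0.0602, adjusted p = 0.00311) and Serpina7 (thyroxine-binding globulin) rose by 1.72 (SE 0.347, adjusted p = 0.00686). Serpina7 had a mean over the 30 arrays of 6.22, by its probe set of highest mean, not far above the table median. The other measured genes of the list had means from 12.07 to 14.41. By limma 0 of 10 were called in Null mice at 3 mg/kg, where 2.02% of all genes were called higher and 3.13% lower, and 0 of 10 at 10 mg/kg, where 4.14% and 4.96% were. An unadjusted p under 0.05 was reached by 1 of 10 at 3 mg/kg, against 21.5% of all genes, and by 3 of 10 at 10 mg/kg, against 26.9%.

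Of 22 measured genes that carry cytokine signals to the hepatocyte, 4 were called lower and 1 higher in WT mice at 10 mg/kg, where 5.54% and 7.53% of all genes were. Il6ra, the interleukin-6 receptor, fell by 0.72 (SE 0.179, adjusted p = 0.0214), Il1rap, the interleukin-1 receptor partner, fell by 0.47 (adjusted p = 0.00607), Jak2 fell by 0.29 (adjusted p = 0.0377), and the liver factor Hnf4a fell by 0.42 (adjusted p = 0.0343), while the kinase Irak1 rose by 0.45 (adjusted p = 0.00664). Without the 2 arrays that stood apart, 9 were called. In Null mice 3.13% and 4.96% of all genes were called lower at the lower and higher dose. Nfkbia, the NF-κB inhibitor, fell by 0.65 (adjusted p = 0.0213) at 3 mg/kg and by 0.58 (adjusted p = 0.0256) at 10 mg/kg. Il1rap fell by 0.50 (adjusted p = 0.0408) at 10 mg/kg. Nfkbia was the only gene of the list called at 3 mg/kg, and there its probe set of highest mean was not called. Stat3 differed by 0.43 (adjusted p = 0.0603) and Socs3, its target, by 0.96 (adjusted p = 0.175) in Null mice at 3 mg/kg. Among 8 measured cytokines and chemokines, Il18 fell by 0.42 (adjusted p = 0.0402) in WT and by 0.36 (adjusted p = 0.012) in Null mice at 10 mg/kg. The probe sets of Il6 and Il1a were under the filter.

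Receptors and partners of these proteins had 12 of 15 genes measured. Cd36, a scavenger receptor that can bind serum amyloid A and is also a PPARα target, rose by 2.29 (SE 0.236, adjusted p = 2.68e-05) in WT mice at 10 mg/kg, and by 0.65 (adjusted p = 0.0385) and 0.81 (adjusted p = 0.009) in Null mice at 3 and 10 mg/kg. Lrp1, through which hemopexin-bound heme is taken up, rose by 0.38 (adjusted p = 0.0329) in Null mice at 3 mg/kg. In these mice at 10 mg/kg Fpr2 fell by 0.57 (adjusted p = 0.0176) and Scarb1, a receptor for high-density lipoprotein, fell by 0.37 (adjusted p = 0.039).

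Markers of other cell types that can make Lcn2 or Saa3 were read on the same arrays. Of 15 neutrophil markers 8 were measured. Their mean level was 5.49 to 5.84 in Null controls, 5.75 to 6.28 in Null mice at 3 mg/kg, and 5.69 to 6.30 at 10 mg/kg, and it was 5.53 to 6.45 in WT controls, 5.54 to 6.43 at 3 mg/kg, and 6.28 to 6.46 at 10 mg/kg. S100a8, which encodes a neutrophil calcium-binding protein, rose by 3.11 (SE 0.832, adjusted p = 0.0333) in Null mice at 10 mg/kg, where Lcn2 was not called, and differed by 1.53 (adjusted p = 0.365) at 3 mg/kg. Mpo, Camp, Ngp, and Mmp8 had no probe set above the filter, and Elane, Ltf, and Cxcr2 had means over the 30 arrays of 5.74, 5.69, and 5.60, close to the table median. S100a8 had a mean of 7.39, and the other measured markers had means from 5.60 to 6.14. In Null mice at 10 mg/kg the median change of the 8 markers was 0.05. Differences in the list level can thus rest largely on S100a8, which ranked 5th for spread within groups, and its part was not tested. The mouse with the highest neutrophil level of its group also had the highest Lcn2 in 4 of the 6 groups (all 3 WT groups and Null mice at 3 mg/kg) and the highest Saa3 in 3. The lowest levels fell in the same mouse in 2 of 6 groups for Lcn2 and in 2 of 6 for Saa3. Among Null mice at 10 mg/kg replicate 4 had the lowest neutrophil level (5.69) with the highest Lcn2 (13.47) and Saa3 (11.76). The part of neutrophils in the Lcn2 and Saa3 values was not tested.

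All 16 Kupffer cell and macrophage markers were measured. In Null mice at 10 mg/kg 3 of 16 were called lower and 0 higher, where 4.96% and 4.14% of all genes were. Cd5l fell by 0.48 (adjusted p = 0.0277), C1qa by 0.42 (adjusted p = 0.0223), and C1qc by 0.51 (adjusted p = 0.0137). At 3 mg/kg 0 of 16 were called, where 3.13% of all genes were called lower and 2.02% higher, so that count is near the share of all genes. Their mean level was 8.53 to 8.94 in Null controls, 8.49 to 8.87 at 3 mg/kg, and 8.11 to 8.78 at 10 mg/kg, and its top mouse was also the top mouse for Lcn2 in 3 of 6 groups and for Saa3 in 3. Of 11 measured hepatocyte markers, 5 were called in WT mice at 10 mg/kg, where 5.54% of all genes were called lower and 7.53% higher, and all 5 fell: Cps1 by 0.29, Tdo2 by 0.42, Ass1 by 0.70, Hnf4a by 0.42, and Tat by 0.46. The count was also 5 without the 2 arrays that stood apart, but 3 with no filter. Ass1 had a mean over the 30 arrays of 7.12, by its probe set of highest mean. The other measured markers had means from 11.91 to 14.41. The mean level of the list was 12.87 to 12.95 in WT controls and 12.55 to 12.72 at 10 mg/kg, moving in the same direction as Cp, and whether the Cp difference is part of that shift was not tested.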

How the data were processed

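Liver RNA of 30 mice (6 groups of 5) was hybridized to Affymetrix GeneChip Mouse Genome 430 2.0 arrays as a single block, so no array batch could be tested. The authors deposited RMA values on the log2 scale for 45101 probe sets, made by background adjustment, quantile normalization, and summarization. Of these, 64 control probe sets were left out. Probe sets above 5.65 in at least 5 arrays were kept. Depth does not apply to arrays, and 5 mice per group limit the precision. Groups came from the sample labels. The highest correlation between any 2 arrays was 0.997, so none was a copy. The annotation gave 34958 probe sets 1 gene, 932 several, and 9211 none, and 34754 symbols were updated through RefSeq.

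Contrasts were fitted with limma 3.58.1 in R 4.3.3, within each genotype (15 arrays) for dose and over 30 arrays for genotype, with Benjamini-Hochberg adjustment over 24069 probe sets. The script was tested on simulated data. Correlations used SciPy 1.17.1 in Python 3.11.15, promoter alignments Biopython 1.88, and plots matplotlib 3.10.9. All probe sets of the members are named. From each other list the 3 genes with the smallest p in WT 10, Null 3, or Null 10 against 0 mg/kg could be named, as could any gene of a count of 5 or fewer. The 3 most alike genes of Saa1, Orm2, and Cp are named by r. Elane, Ltf, Cxcr2, and Apcs were named outside that rule, after their values were seen. Members and lists were chosen with earlier results of these data known. Alternatives were the filter, the normalization, the spread estimate, the arrays fitted, a replicate block, the methods' t-test, the threshold, the probe set for a gene, and each array left out. Leaving out both WT controls that stood apart was chosen after seeing the data.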

Additional observations from a re-analysis of the deposited data

Results flagged for a closer look

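Of 114 groups of 5 values (19 probe sets in 6 groups), 13 held 1 mouse whose distance from the nearest other mouse exceeded Dixon's 95% limit, where chance gives about 1 in 20. All 13 were the highest value of the group, and the genes vary together, so the 13 are not independent.

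Null replicate 4 at 3 mg/kg accounted for 5 of them. Its Saa3 value was 13.84 against 8.68 to 9.24 in the other 4 mice, and its Saa4 1419318_at value was 13.10 against 12.64 to 12.77. Its Cp values were 13.72 against 13.31 to 13.38 for 1417494_a_at, 13.11 against 12.72 to 12.83 for 1417495_x_at, and 12.78 against 12.00 to 12.21 for 1417496_at.

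WT replicate 3 at 10 mg/kg accounted for another 5. Its Saa4 values were 12.89 against 11.85 to 12.10 for 1419318_at and 12.01 against 10.81 to 11.07 for 1419319_at. Its Cp values were 13.29 against 12.95 to 13.05 for 1417494_a_at, 12.16 against 11.71 to 11.80 for 1417496_at, and 12.19 against 11.75 to 11.87 for 1448734_at. The remaining 3 were Saa3 in WT replicate 5 at 3 mg/kg (11.47 against 8.23 to 8.84), Orm1 in Null replicate 4 at 10 mg/kg (13.31 against 12.31 to 12.56), and Cp 1448735_at in WT control replicate 3 (6.57 against 5.27 to 5.64). What set these mice apart was not tested.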

How the results depend on the processing

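Of 3325 log2 changes of single member probe sets under alternatives, 3233 had the sign of the reported value and 92 the other sign, in 38 of 171 changes, 0 of them called. Among the 35 values under alternatives of the called changes, 20 were no longer past the threshold. Among the values of changes not called, 7 came past it. In WT mice at 10 against 0 mg/kg the count of called member probe sets, 1, was 0 with no filter, with each array shifted to the same median, with quantile normalization repeated, by the methods' t-test at its unadjusted limit or after Benjamini-Hochberg, and by limma at an unadjusted p of 0.0025. It was 2 without the 2 WT control arrays that stood apart, and 0 to 3 with 1 array left out, 3 being without WT control replicate 5 and 2 without treated replicate 3. In Null mice at 3 against 0 mg/kg the count of 1 was 2 with a trended, robust spread, 0 with all 30 arrays fitted, and 0 by the methods' t-test after Benjamini-Hochberg. With 1 array left out it was 0 to 2, being 2 without control replicate 1. In Null mice at 10 against 3 mg/kg the count of 0 was 2, both of Saa4, by limma or the methods' t-test at the unadjusted limit.

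Without the 2 arrays that stood apart, the calls in WT mice at 3 mg/kg became 1 of the endothelial and 2 of the stellate cell markers. At 10 mg/kg they became 2 of the other positive and 4 of the negative acute-phase proteins, 9 of the cytokine signal genes, 5 of the receptors, 1 of the Kupffer cell, 1 of the neutrophil, 5 of the endothelial, and 3 of the stellate cell markers. With no filter, WT mice at 10 mg/kg had 3 cytokine signal genes, 0 cytokines, 3 hepatocyte markers, and 2 adipocyte markers called, Null mice at 3 mg/kg 0 receptors, and Null mice at 10 mg/kg 1 cytokine signal gene and 1 endothelial marker. With the probe set of highest mean for a gene, the cytokine signal genes called were 0 in Null mice at 3 mg/kg and 1 at 10 mg/kg. Causes of these shifts were not tested.

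Replicate numbers were not taken to pair the mice. Over 30 pairs of same-numbered arrays the correlation of deviations from group means was -0.232 to 0.315, and 8 exceeded 0.1. Pairs with unlike numbers were not computed for reference, so these values cannot settle whether the numbers pair the mice. With the number as a replicate block, 0 member probe sets were called in WT mice at 10 against 0 mg/kg.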

Other observations

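Other kinds of cells were read on the same arrays. In Null mice at 10 mg/kg 2 of 11 endothelial markers were called higher and 0 lower, where 4.14% and 4.96% of all genes were. Lyve1, a marker of sinusoidal endothelium, rose by 1.39 (adjusted p = 0.0177) and Pecam1 by 0.26 (adjusted p = 0.0487). The median change of the list was -0.09, against 0.0019 over all genes, and Lyve1 had a mean over the 30 arrays of 5.94, near the table median. In WT mice at 10 mg/kg Dcn, called as 1 of 9 stellate cell and fibroblast markers measured, fell by 0.66 (adjusted p = 0.00491). Fabp4, called as 1 of 3 fat cell markers measured, rose by 0.71 (adjusted p = 0.0102). The median changes of the 2 lists were -0.13 and -0.12, so that of the fat cell markers was opposite to Fabp4. Of all genes 7.53% were called higher and 5.54% lower. Of 7 T, B, and NK cell markers and 3 bile duct markers measured, 0 were called by limma in any dose comparison against controls, with 0 to 1 at an unadjusted p under 0.05. Of all genes, 0.239% to 7.53% were called higher and 0.00823% to 5.54% lower in these comparisons, and 6.61% to 32.1% had such a p. Counts of 0 in lists this short are near those shares. Among all kept probe sets S100a8 ranked 5th for spread within groups (pooled SD 1.63).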
